A study of Mus musculus with 4 samples.

Results

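The CT-26 comparison sets blood cells that bound MHC multimers, named circulating tumor-reactive lymphocytes (CTRL), against a library labelled residual, in mice of the CT-26 tumour model. CT-26 is a mouse colon carcinoma line, and an MHC multimer is a labelled cluster of peptide and MHC molecules that marks T cells by the receptor they carry. The comparison holds 2 of the 4 libraries of the series, 1 for CTRL and 1 for the residual, and covers all 53801 genes of the CT-26 table. The libraries were chosen by their labels and not by any measured value. Per the labels both populations are wild-type primary CD8+ lymphocytes purified from peripheral blood mononuclear cells (PBMC), and the treatment label of both reads multimer-binding. The labels used here state no strain, age or sex, no number of animals behind a library, no peptide for the multimers, and no other cells of the blood that were removed. They also do not say whether the residual is the CD8+ cells that did not bind or all remaining blood cells, and this sets what every ratio compares.

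The CTRL library held 74879891 reads in genes and the library labelled residual 50823018. At least 1 read fell in 25243 genes in CTRL and in 24213 genes in the residual, and 27960 genes had a read in either. With 1 library a side there is no replicate check, no test and no p-value, and a difference describes these libraries only. All log2 ratios are CTRL over residual, taken on the deposited normalized counts plus 1, and positive ones are higher in CTRL. A gene was called higher or lower when its ratio reached 2-fold, which is 1 on the log2 scale, and its higher library reached 10 CPM (reads scaled to a fixed library total), which equals 749 reads in CTRL and 508 in the residual. A range after a log2 ratio is its exact 95% counting interval. It covers counting error only, since PCR copies carry no molecular identifiers here and reads are not independent molecules. Of 9514 genes at that level, 1381 (14.5%) were higher in CTRL and 1555 (16.3%) were lower, or 30.9% in either direction. These shares are the background for every list count below on normalized counts. The calls were of unequal size. At 4-fold 208 genes were higher and 974 lower, and at a log2 ratio of 5 in size 15 were higher and 392 lower. Scaled to total reads in place of the size factors, 58.8% of the calls were higher, against 47.0% here, and the median log2 ratio moved by 0.19. Of the genes named below, 10 within 2-fold here (Anxa6, Gbp2, Gfi1, Hk1, Klf3, Klf16, Mcm5, Mcm6, Rmnd5a and Trbc1) passed as higher with that scaling, and 4 lower ones (Gsr, Gss, Stmn1 and Tgfbr1) fell within 2-fold. The median ratio was 0.23 over the genes at the level and 0.07 over all genes with a read. A list's median is likewise taken over all its members with reads, those under the level included, and the median of the members at the level is added where it lies well apart.

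A CD8+ T cell reads peptides on MHC class I with a receptor made of an alpha and a beta chain, which signals through the CD3 chains and the kinases Lck and Zap70 while the coreceptor CD8 holds the same MHC molecule. Naive and central memory cells carry lymph node homing receptors and the survival receptor for interleukin 7. Effector cells lose these and gain granzymes, inflammatory chemokine receptors and NK receptors. Whole blood also holds CD4+ T cells, B cells, NK cells, monocytes, neutrophils, platelets and red cells, and each leaves its own transcripts in a bulk library. In bulk RNA, fewer cells of a type and less RNA per cell cannot be told apart.

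The genes of the CD8 coreceptor had the largest positive ratios of all genes above 100 CPM, and annotated transcripts between them differed as far. Cd8b1 (ENSMUSG00000053044), the beta chain of the coreceptor, had 91021 normalized counts in CTRL against 1630.4 in the residual (5.80, 5.72 to 5.88), and Cd8a (ENSMUSG00000053977), the alpha chain, 42367 against 579 (6.19, 6.06 to 6.33). The genes lie on chromosome 6 of mm10, at 71322788 to 71337494 and at 71373427 to 71379173. Of the predicted genes between them, Gm44174, which ends just before Cd8a on the same strand, had 1767 reads against 7 (7.08, 6.18 to 8.54), and Gm44175, on the other strand, 1148 against 16 (5.35, 4.71 to 6.22). The nearest protein-coding neighbours did not pass the rule, with Krcc1 on one side at -0.23 and Rmnd5a on the other at 0.98. The window was chosen after its values were seen. The sources used here do not give the strand setting of the counting, and reads of these genes and of an overlapping or unspliced neighbour cannot be told apart.

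The coreceptor of helper T cells ran the other way. Cd4 had 229.6 normalized counts in CTRL against 6854 in the residual (-4.89, -5.07 to -4.73). Zbtb7b, the transcription factor that sets the helper fate, was at -4.73, the helper ligand gene Cd40lg at -4.69 and Foxp3, the factor of regulatory T cells, at -3.78. Runx3, which silences Cd4 in the CD8 lineage, was higher in CTRL at 1.32, less than the 1.57 of the summed CD3 genes. Of 10 CD8 and CD4 lineage genes at the level, 4 were higher and 3 lower (median 0.26). Eomes (-0.43) and Tbx21 (-0.94) of that list were within 2-fold. CTRL held 184.55 Cd8a reads for each Cd4 read and the residual 0.0845. The low Cd8a and Cd8b1 of the residual go against its CD8+ label, so the residual means throughout only the library labelled so, and each direction rests on that label.

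**Figure D1:**
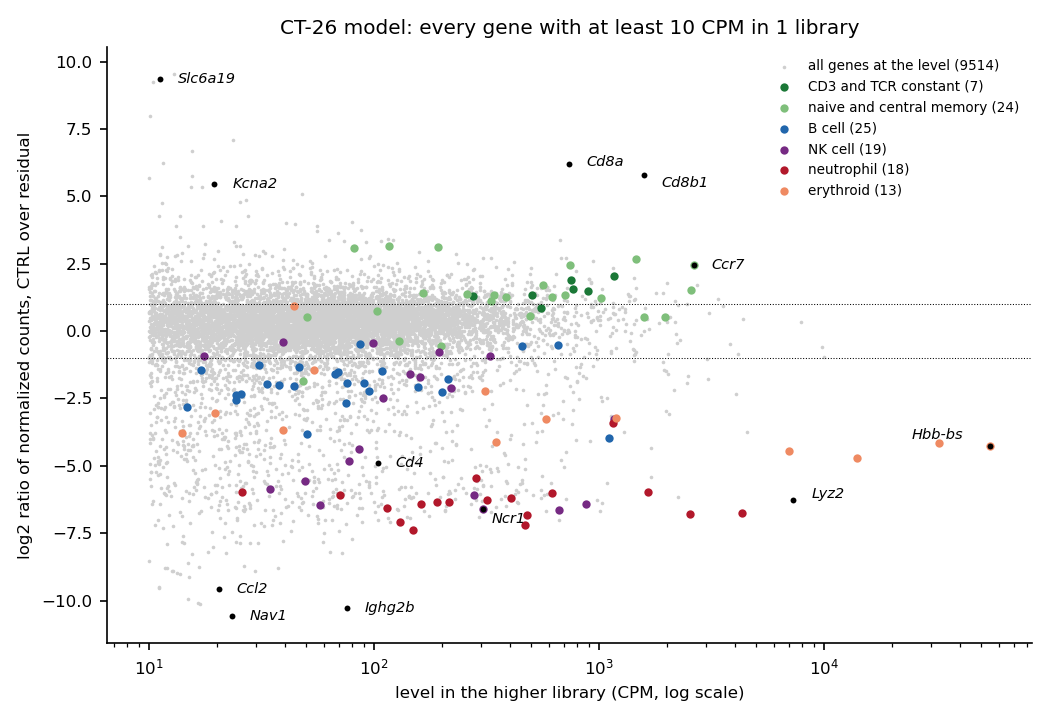
Each point is 1 of the 9514 genes at the level; the horizontal axis is the CPM of the higher library on a log scale and the vertical axis the log2 ratio of normalized counts, CTRL over residual. Dotted lines mark 2-fold, coloured points are members of 6 gene lists, and named black points show that Cd8a (6.19) and Cd8b1 (5.80) stand alone among abundant higher genes while neutrophil and haemoglobin genes lie far below 0.

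The chains and the signalling proteins of the T-cell receptor were higher in CTRL, by less than the coreceptor. Of 7 CD3 and receptor constant genes, 6 were higher and 0 lower, and Trbc1, the first beta constant gene, missed the limit at 0.85 while Trbc2 passed at 1.49. Of 29 proximal signalling genes, 18 were higher and 1 lower, with a median of 1.33 against 0.07 for all genes with a read. Themis, a scaffold that tunes signal strength in thymocytes, had 13301 normalized counts in CTRL against 1823 in the residual (2.87, 2.79 to 2.95). Plcg1, the phospholipase that starts the calcium signal, had 24048 against 4101 (2.55). Lck was at 1.42, Zap70 at 1.30 and the adaptor Lat at 1.09. Trat1, which encodes a transmembrane adaptor of the receptor complex, was the only member lower, with 609 against 2096 (-1.78).

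The level per CD3 read sets the T-cell genes against the T-cell receptor transcripts of each library. The 4 CD3 genes Cd3d, Cd3e, Cd3g and Cd247 held 171439 reads in CTRL and 34252 in the residual, a log2 ratio of 1.57 after normalization. Per CD3 read, all 7 receptor genes stayed within 2-fold, but 4 of them are the CD3 genes whose sum sets the scale. The receptor constant genes do not enter it. Per 1000 CD3 reads, Trac had 507 reads in CTRL against 365 in the residual, Trbc2 390 against 413 and Trbc1 242 against 400. The signalling list had 2 members at least 2-fold higher, 8 at least 2-fold lower and 19 within. Themis had 101 reads per 1000 CD3 reads in CTRL against 41.0 in the residual. Lck, at 836 against 925, and Zap70, at 88.1 against 106, stood close to the CD3 genes. Over all genes at the level with reads in both libraries, 81 were at least 2-fold higher per CD3 read, 6468 lower and 2956 within. Most genes were thus lower on this scale, and these counts are the background for every list count per CD3 read. Since the residual holds Cd4 and other T-cell transcripts, CD3 reads there need not come from CD8+ cells.

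Genes of naive and central memory cells were higher as a group, and some of them exceeded the CD3 genes. Of 24 at the level, 16 were higher on normalized counts and 1 lower, with a median of 1.30, and 4 were at least 2-fold higher per CD3 read. Tcf7, which encodes the transcription factor TCF-1, had 639 reads per 1000 CD3 reads in CTRL against 298 in the residual, and Dapl1, a gene known from naive T cells of the mouse, 84.3 against 29.0. Ccr7, the lymph node homing receptor, had 1154 against 632 and Il7r 325 against 174, short of 2-fold on this scale. Id3, an inhibitor of E proteins, was the member lower, with 869 normalized counts against 3179 (-1.87).

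Effector and memory genes were mostly lower. Of 25 at the level, 2 were higher and 15 lower, with a median of -1.51. Per CD3 read 22 were at least 2-fold lower, 1 higher and 2 within, on a scale where most of all genes at the level were lower too. The higher pair was Ly6a, which encodes Sca-1, with 2279 normalized counts in CTRL against 362 in the residual (2.65), and Cxcr3, a receptor for interferon-induced chemokines, with 3735 against 1425 (1.39). Anxa1, annexin A1, had 1412 against 46268 (-5.03), and Cd44, the hyaluronan receptor raised on antigen-experienced T cells, 3411 against 22082 (-2.69). Myeloid and NK cells express Anxa1 and Cd44 as well. Classical monocyte genes had 0 members higher and 17 lower of 19 at the level (median -5.89) and NK cell genes 0 higher and 14 lower of 19 (median -4.47, and -3.27 at the level). Their part in the effector list was not tested.

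**Figure D2:**
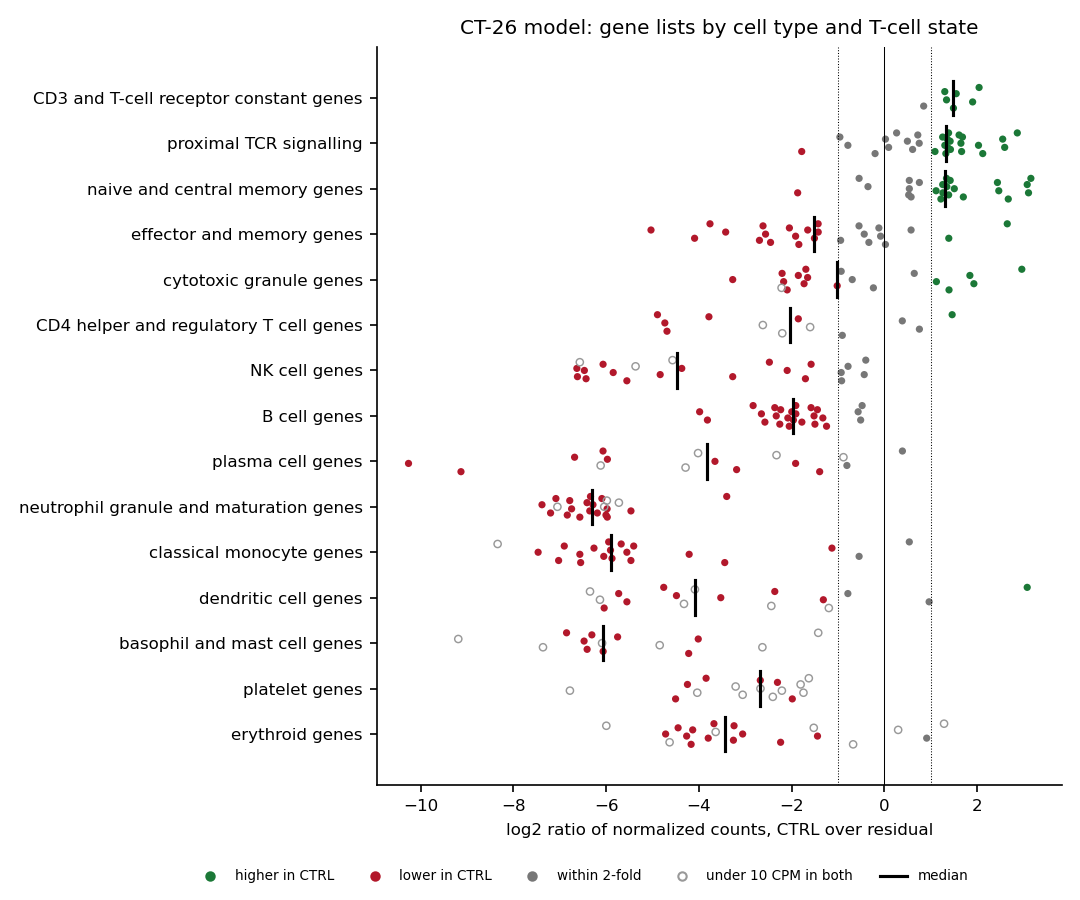
Each point is 1 gene of a list named at the left, at its log2 ratio of normalized counts, CTRL over residual, and the black bar is the list's median over members with reads. Green, red and grey points are higher, lower and within 2-fold; open points had under 10 CPM in both libraries. The CD3, signalling and naive lists have medians of 1.49, 1.33 and 1.30, while the neutrophil list is packed near its median of -6.31.

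The cytotoxic genes went both ways. Of 18 at the level, 5 were higher and 9 lower, with a median over members with reads of -1.02. Gzmm, granzyme M, had 1162 normalized counts in CTRL against 148 in the residual (2.96, 2.7 to 3.26), and Gzmk, granzyme K, 1646 against 626 (1.39, 1.25 to 1.54). Gzma, granzyme A, had 7973 against 76958 (-3.27), and Gzmb, granzyme B, 3404 against 14558 (-2.10). Gzmd, Gzme, Gzmf and Gzmg had no reads in either library. On the TPM scale, which divides by transcript length, Gzma was still the highest of these granzymes in both libraries, at 452 TPM in CTRL and 2472 TPM in the residual. Ctsw, cathepsin W, was higher at 1.93, and Prf1, perforin, missed the limit at -0.93. NK cells also make Gzma, Gzmb and Prf1, and the NK receptor gene Ncr1 had 203 normalized counts in CTRL against 20018 in the residual; its part was not tested.

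Gzma and Gzmk are neighbours on chromosome 13, at 113093825 to 113100981 and 113171608 to 113225908 on mm10, and differed in opposite directions. Cdc20b, on the far side of Gzma, was at -3.30, close to Gzma. Esm1, annotated inside the span of Gzmk on the other strand, was at 1.95 with 925 reads in CTRL against 142 in the residual, so its reads and those of Gzmk cannot be told apart.

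Receptors for homing, egress and retention divided in the same manner. Of 25 genes at the level, 10 were higher and 7 lower (median -0.27 over members with reads and 0.10 over those at the level). Itgae, the CD103 integrin chain that binds E-cadherin, had 3991 normalized counts in CTRL against 315 in the residual (3.66, 3.48 to 3.85). Crtam was at 3.34, Cxcr6 at 3.32, the gut homing receptor Ccr9 at 3.08 and Cd69 at 1.72. Among receptors for sphingosine 1-phosphate, the lipid that guides lymphocytes out of lymph nodes, S1pr1 had 32527 against 9991 (1.70) and S1pr4 13162 against 5622 (1.23). S1pr5, which NK cells use for egress, had 3178 against 9503 (-1.58). Itgae, Cxcr6 and Cd69, known from tissue-resident cells, and S1pr1 and Ccr7 (2.44), genes of circulation, were higher in the same library. They were picked from the higher genes, and the 7 lower members of the list reached down to -5.41.

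Cytokine receptor genes also went both ways. Of 31 at the level, 7 were higher and 14 lower, with a median of -1.17 over members with reads and of -0.12 over those at the level. The higher genes were Il7r (2.47), Il27ra (2.22), Il6st (2.03), Il21r (1.88), Il4ra (1.60), Tgfbr2 (1.26) and Il2rg (1.14). Il2rg encodes the common gamma chain that pairs with the receptors for interleukins 4, 7 and 21, and Il6st the gp130 chain that pairs with Il27ra. Il27ra had 45548 normalized counts in CTRL against 9798 in the residual, and Il21r 14057 against 3809.9. Il2rb, the beta chain for interleukins 2 and 15, was within 2-fold at -0.12, and at 0.08 with total-read scaling. Among the low ratios were those of Lifr, the receptor of leukaemia inhibitory factor (-6.70), of Il13ra1, a chain of the interleukin 13 receptor (-5.94), and of the myeloid growth factor receptors Csf2rb2 (-6.62), Csf2rb (-6.25), Csf3r (-5.98) and Csf1r (-5.68). Neutrophil and monocyte lists had medians of -6.31 and -5.89 beside these, and their part was not tested. The receptors of interferons did not move alike, with Ifnar1 at 0.17 and Ifngr1 at 0.02, within 2-fold, and their partner chains Ifnar2 at -1.40 and Ifngr2 at -1.75, both lower. Tgfbr1, the partner of Tgfbr2, was lower at -1.19.

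In the tumour necrosis factor family, 5 of 21 genes at the level were higher and 13 lower (median with reads -1.65). Tnfsf8, the CD30 ligand, had 2984 normalized counts in CTRL against 596 in the residual (2.32). Tnfsf10, the ligand TRAIL, was at 1.84, Tnfrsf26 at 1.60, Cd27 at 1.35 and Tnfrsf14, the receptor HVEM, at 1.19. Tnfrsf21, death receptor 6, had 52.4 against 6871 (-7.01), and Ltbr, the lymphotoxin beta receptor that lymphocytes lack, 48.5 against 3484 (-6.14). The costimulatory receptor Tnfrsf9, raised on activated T cells, was lower at -2.26.

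Lymphoid transcription factors had 9 higher and 7 lower of 27 at the level (median with reads 0.55), and myeloid ones 0 higher and 12 lower of 13 (median -5.67). The higher lymphoid genes were Tcf7 (2.67), Myb (1.94), Ets1 (1.51), Lef1 (1.34), Runx3 (1.32), Foxo1 (1.26), Satb1 (1.22), Stat4 (1.19) and Tcf12 (1.06). Among the lower ones, Zbtb16, the factor PLZF of innate-like T cells, had 23.1 normalized counts in CTRL against 731 in the residual (-4.92), Maf was at -3.48, Irf4 at -3.19 and Bcl6 at -2.68. Spi1, the myeloid factor PU.1, had 807 against 40265 (-5.64), and Gfi1, which T cells and neutrophils both use, was within 2-fold at 0.82. Of 11 Kruppel-like factors at the level 0 were higher and 4 lower. Klf2, which drives S1pr1, was at 0.54, and Klf3 missed the limit at 0.98 and Klf16 at 0.95. With total-read scaling these 2 passed as higher, at 1.17 and 1.14, whereas under the scaling used here Klf5 was at -4.96 and Klf4 at -2.89.

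Within several small families, members stood on opposite sides. The pairs were chosen after their values were seen, so they illustrate and test nothing. Slc16a1, the lactate transporter MCT1, had 5036 normalized counts in CTRL against 784 in the residual (2.68, 2.56 to 2.81), and Slc16a3, the exporter MCT4 of glycolytic cells, 276 against 12363 (-5.48, -5.64 to -5.33). Among hexokinases, which start glycolysis, Hk1 was at 0.97, under the limit (1.16 with total-read scaling), Hk2 at -4.19 and Hk3 at -4.72. Of 23 glycolysis and lactate genes 1 was higher and 7 lower, with a median of -0.54, and the core enzymes Gapdh (-0.04), Eno1 (-0.00) and Ldha (0.19) were near 0. With total-read scaling Gapdh stood at 0.16 and Eno1 at 0.19. The respiratory chain list had 0 of 26 higher and 0 lower, from -0.85 to 0.69. Myeloid cells express Slc16a3, Hk2 and Hk3, and the part of their RNA was not tested.

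**Figure D3:**
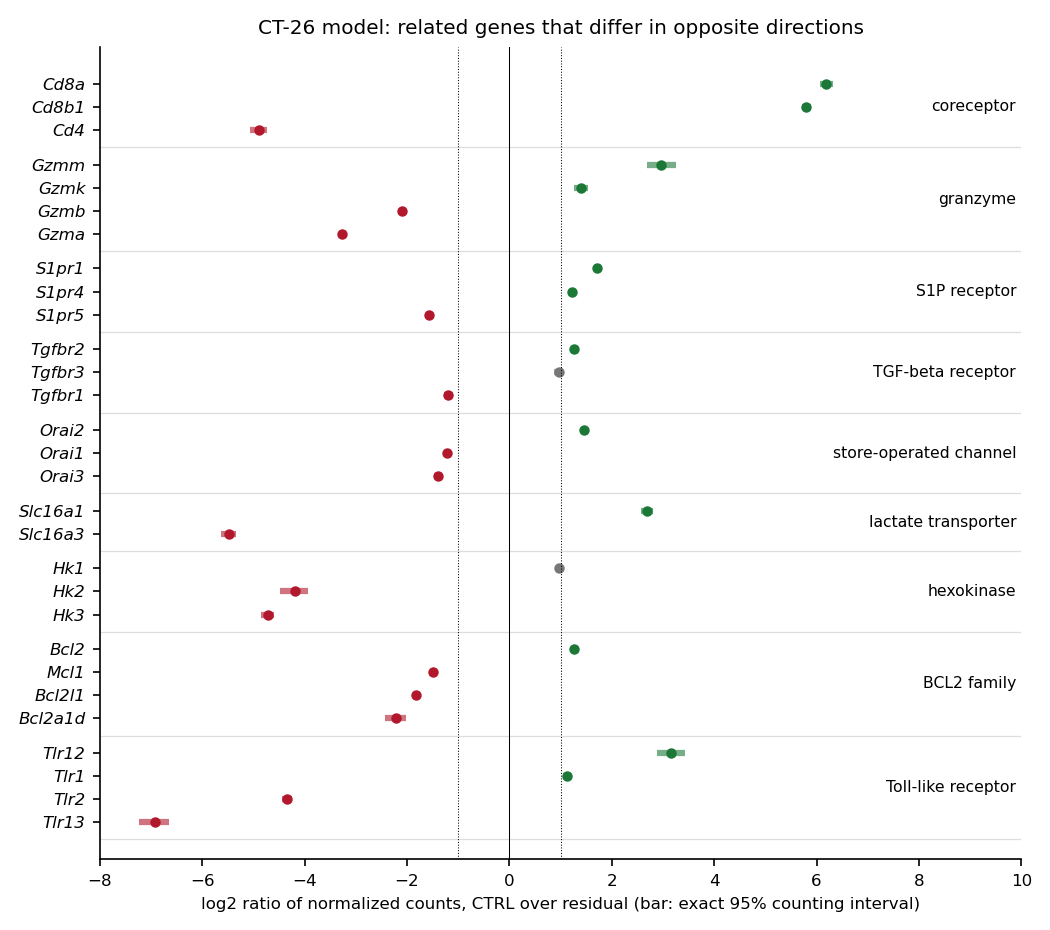
Rows are genes grouped by family, the horizontal axis is the log2 ratio of normalized counts, CTRL over residual, and bars are exact 95% counting intervals, hidden by the point where narrow. Dotted lines mark 2-fold; green, red and grey points are higher, lower and within 2-fold. Each family shown holds members on both sides of 0, such as Slc16a1 at 2.68 and Slc16a3 at -5.48.

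Survival genes showed the same contrast. Bcl2, the survival protein of resting lymphocytes, had 35743 normalized counts in CTRL against 14902 in the residual (1.26), whereas Mcl1 had 46844 against 131139 (-1.49) and Bcl2l1, Bcl-xL, 2029.9 against 7147 (-1.82). Of 10 BCL2 family genes at the level, 1 was higher and 5 lower.

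Channels and transporters known from T cells were partly higher. Of 19 ion channel and calcium entry genes, 6 were higher and 4 lower (median with reads 0.04). Kcna3, the potassium channel Kv1.3 of T cells, had 10531 normalized counts in CTRL against 2805 in the residual (1.91), and Kcnn4, the calcium-gated channel KCa3.1, 17796 against 6341 (1.49). Kcna2, best known as a neuronal potassium channel, had 1461 reads against 19 (5.46, 4.86 to 6.25). Orai2, a subunit of the calcium release-activated channel that restrains the current in mouse T cells, was at 1.47, while the pore subunit Orai1 was at -1.22 and Orai3 at -1.39. Stim1, the sensor that opens the channel, did not pass the rule (0.79).

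Amino acid transport and glutathione genes had 5 higher and 4 lower of 18 at the level (median with reads 0.23). Slc6a19, a neutral amino acid transporter best known from gut and kidney, had 839 reads in CTRL and 0 in the residual, and was at least 166-fold higher against a floor of 3 reads. Ggt1, which cleaves extracellular glutathione, had 4589.9 normalized counts against 274 (4.06). Slc7a5, the large neutral amino acid transporter that activated T cells need, was at 1.81 and Slc7a6 at 1.64. Slc3a2, the heavy chain that pairs with both, had 15662 against 15666, and a ratio of 0.19 with total-read scaling. Slc7a7 (-6.34) and the cystine transporter Slc7a11 (-6.50), which share that heavy chain, were lower. Gclc, the first enzyme of glutathione synthesis, was higher (1.39), and Gss (-1.13) and Gsr (-1.17), which finish and recycle glutathione, were lower.

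Ectoenzymes and purine receptors had 3 higher and 5 lower of 14 at the level (median -1.46 over members with reads and -0.50 over those at the level). Art2b, an ADP-ribosyltransferase on the surface of mouse T cells, had 1463 normalized counts in CTRL against 165 in the residual (3.14). Nt5e, the ectonucleotidase CD73 that makes adenosine, was at 1.22, while Entpd1, CD39, which supplies its substrate, had 574 against 5168 (-3.17). P2ry10, a lysophospholipid receptor of lymphocytes, was at 1.57 and P2ry13, an ADP receptor, had 8 reads against 971 (-7.46, -8.89 to -6.69).

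Interferon-responsive genes fell into a pair of groups that ran in opposite directions. Interferons act through STAT factors. Type I interferon signals mainly through an element named ISRE, and interferon gamma through one named GAS, though many genes answer both. The guanylate-binding proteins (Gbp) and immunity-related GTPases, cell-autonomous defence proteins known as strongly induced by interferon gamma in the mouse, had 11 higher and 0 lower of 16 at the level, with a median over members with reads of 1.1. Of 32 type I interferon-stimulated genes, such as the antiviral Isg15 and Oas genes, 1 was higher and 21 lower, with a median of -1.41.

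The GTPase genes with the largest ratios were Gbp6 (2.81), Tgtp1 (2.78), Gbp10 (2.77) and Tgtp2 (2.37). Gbp4 was abundant, with 28593 normalized counts in CTRL against 8158 in the residual (1.81, 1.77 to 1.85). The Gbp genes lie in a cluster on chromosome 3 and one on chromosome 5. The 6 genes of chromosome 5 on the list ranged from 1.41 to 2.81, and 5 were higher, Gbp11 (1.70) being under the level. The 4 genes of chromosome 3 on the list ranged from 0.37 to 1.0, and 1 was higher, and Gbp2b, which is in that cluster but off the list, was at 0.18. In the Irg cluster of chromosome 11, Irgm1 stayed at 0.10 while its neighbours Tgtp1 and Tgtp2 were higher, and Gm12185, a predicted gene that overlaps Tgtp1, had 2025 reads against 41 (4.85). Members of these clusters are near-identical or overlap in the annotation, which leaves single values uncertain.

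Among the type I genes, Ifi205 (-5.96), Oas1g (-5.69) and Oasl2 (-5.48) were the lowest. Isg15, a ubiquitin-like modifier, had 530.0 normalized counts in CTRL against 6797 in the residual (-3.68), and Rsad2, viperin, 1636 against 26563 (-4.02). Ifit1, a sensor of viral RNA, was at -1.38 and Ifit1bl1 was the member higher, at 1.12. Irf9, of the type I complex, was within 2-fold at -0.05, and at 0.14 with total-read scaling. Per CD3 read, 30 of the 32 type I genes were at least 2-fold lower and 0 higher, while the GTPase list had 3 at least 2-fold higher, 3 lower and 10 within. Most of all genes at the level were also at least 2-fold lower on that scale. Monocytes, neutrophils and B cells express type I genes too, and their lists had medians of -5.89, -6.31 and -1.96 with 0 members higher; their part was not tested.

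The promoter letters of 3 genes from each group are shown because both groups hold the same motif letters and their ratios have opposite signs. Of those shown, Gbp2 was within 2-fold at 0.86. Sequences are the 250 bases before the start in RefSeq on GRCm38.p6, read 5′ to 3′ on the strand of the gene, with matches to the ISRE letters in capitals: GAAA, any 2 bases and GAAA again, or the reverse complement. Gbp2 spans chr3:142620413-142620662 on the plus strand, Igtp chr11:58199306-58199555 on the plus strand and Tgtp1 chr11:48992247-48992496 on the minus strand. Isg15 spans chr4:156200819-156201068 on the minus strand, Ifit1 chr19:34640639-34640888 on the plus strand and Rsad2 chr12:26456453-26456702 on the minus strand.
Gbp2: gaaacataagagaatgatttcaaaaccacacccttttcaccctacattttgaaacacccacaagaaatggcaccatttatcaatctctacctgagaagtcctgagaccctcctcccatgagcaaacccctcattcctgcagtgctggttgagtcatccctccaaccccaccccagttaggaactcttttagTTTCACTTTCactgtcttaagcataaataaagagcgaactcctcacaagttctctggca
Igtp: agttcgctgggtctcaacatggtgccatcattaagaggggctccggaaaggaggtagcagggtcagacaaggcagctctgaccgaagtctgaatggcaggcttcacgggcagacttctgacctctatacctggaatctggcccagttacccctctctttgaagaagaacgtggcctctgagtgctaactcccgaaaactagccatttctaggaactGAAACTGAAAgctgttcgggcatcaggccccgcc
Tgtp1: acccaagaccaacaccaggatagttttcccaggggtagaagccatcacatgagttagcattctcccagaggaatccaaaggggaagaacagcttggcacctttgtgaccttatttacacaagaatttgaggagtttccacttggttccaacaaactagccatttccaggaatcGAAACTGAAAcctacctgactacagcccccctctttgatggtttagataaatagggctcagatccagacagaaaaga
Isg15: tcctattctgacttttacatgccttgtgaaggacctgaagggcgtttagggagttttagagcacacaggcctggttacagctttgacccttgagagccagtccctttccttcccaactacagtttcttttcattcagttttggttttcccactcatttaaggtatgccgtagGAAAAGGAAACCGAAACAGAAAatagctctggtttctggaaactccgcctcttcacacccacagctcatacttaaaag
Ifit1: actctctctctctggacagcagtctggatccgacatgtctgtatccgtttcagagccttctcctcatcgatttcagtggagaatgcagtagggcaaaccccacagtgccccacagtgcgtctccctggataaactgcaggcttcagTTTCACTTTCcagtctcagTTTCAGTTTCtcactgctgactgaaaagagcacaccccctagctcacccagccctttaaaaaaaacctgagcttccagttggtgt
Rsad2: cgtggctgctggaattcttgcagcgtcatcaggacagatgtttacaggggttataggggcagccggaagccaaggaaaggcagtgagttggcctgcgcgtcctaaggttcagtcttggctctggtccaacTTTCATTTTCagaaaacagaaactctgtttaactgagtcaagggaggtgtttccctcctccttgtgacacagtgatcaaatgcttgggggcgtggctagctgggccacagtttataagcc

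RefSeq listed a promoter for 10 of the 17 GTPase genes and for 23 of the 32 type I genes. The Gbp genes of chromosome 5 were not among the 10. Of the 10, those called higher were Gbp5, Igtp, Tgtp1, Tgtp2 and Ifi47. The ISRE letters were in 9 of the 10 and in 12 of the 23, against 3.04% of 27025 genes with a promoter. Among genes at the level they were in 2.83% of those higher in CTRL and 4.95% of those lower. The GAS letters TTCNNNGAA were in 6 of the 10 GTPase promoters and in 4 of the 23 type I promoters, against 7.18% of all genes. Both strands were searched for 8 motifs, and GAS can overlap ISRE matches in the sequence. Tgtp1 and Isg15, with 1 and 3 ISRE matches, stood at 2.78 and -3.68. A match is a string of letters and not a bound site, and the absence of one says only that these letters are not in this window.

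**Figure D4:**
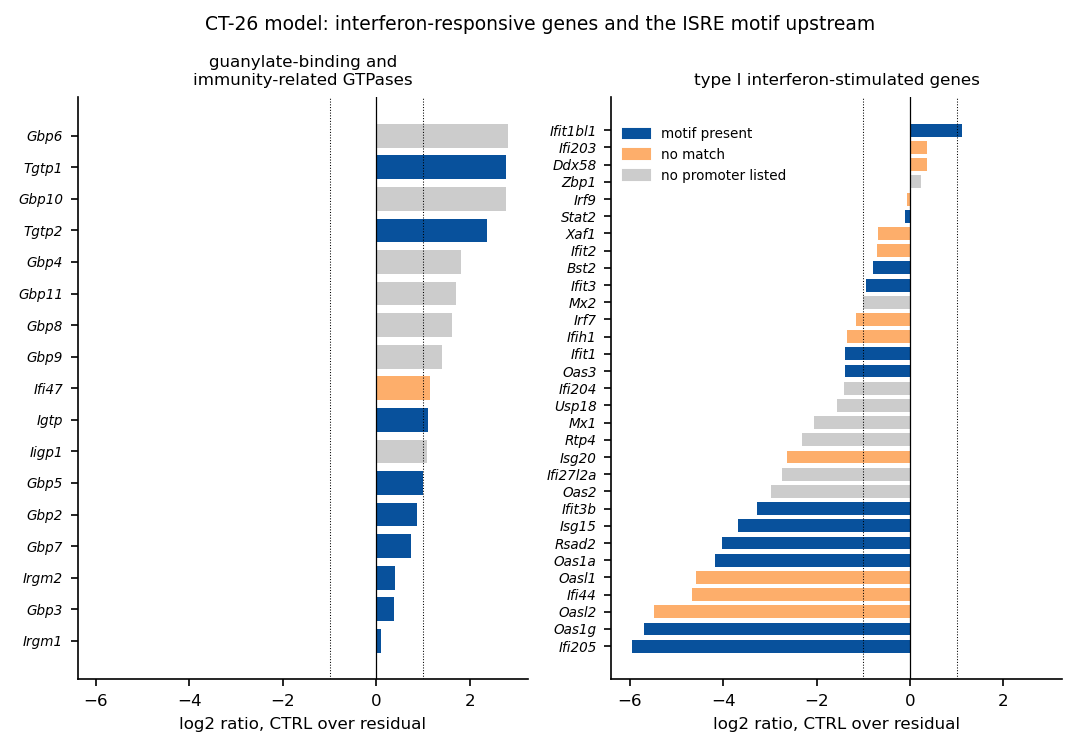
Horizontal bars are log2 ratios of normalized counts, CTRL over residual, for the GTPase list (left panel) and 31 of the 32 genes of the type I interferon-stimulated list (right panel), ordered by ratio. Blue bars have the ISRE letters in the 250 bases before the start, orange bars do not, and grey bars have no promoter listed. All 17 GTPase bars point to the right, from 0.10 to 2.81, and most type I bars point to the left, down to -5.96.

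The class I and class II routes of antigen presentation also parted. Class I, carried by every nucleated cell, had 4 higher and 0 lower of 21 genes (median 0.59). Class II, the property of B cells, dendritic cells and monocytes, had 1 higher and 13 lower of 16 (median -2.98). Nlrc5, the transactivator of class I genes, had 28586 normalized counts in CTRL against 5584 in the residual (2.36, 2.31 to 2.40). Erap1, the peptidase that trims class I peptides, was at 1.73, Tapbpl at 1.43 and H2-Q6 at 1.13, while the heavy chains H2-K1 (0.46) and H2-D1 (0.35) and B2m (0.32) stayed within 2-fold. Ciita, the transactivator of class II, was at -2.27. The class II chains H2-Aa (-3.04), H2-Eb1 (-3.06) and H2-Ab1 (-3.13) and the invariant chain Cd74 (-2.98) lay within a narrow range. H2-Oa, which modulates peptide loading, was the class II member higher (1.22). B cell genes had a median of -1.96 beside these, and their part was not tested.

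Immediate early genes were mostly lower, with 3 higher and 15 lower of 26 at the level (median with reads -1.28). Atf3, a stress-induced factor, had 282 normalized counts in CTRL against 25338 in the residual (-6.48), Ier3 was at -4.92, Egr1 at -3.74, Nr4a1, which responds to receptor signals in T cells, at -2.61, Dusp1 at -2.34 and Fos at -1.80. Higher in CTRL were Cd69 (1.72), Tnfaip3 (1.69) and Myc (1.41). Tnfaip3, the NF-kappaB inhibitor A20, was among the 15 genes with most reads in CTRL, with 156375 against 48382. Jun was within 2-fold at 0.56. Myeloid cells respond with these genes too, and the part of their RNA was not tested.

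Cell cycle genes were sparse, with 16 of 31 under the level. Of the 15 others, 4 were higher and 3 lower, with a median of 0.49. Subunits of the helicase that licenses replication origins were higher or close to the limit, with Mcm2 at 1.18, Mcm4 at 1.12, Mcm7 at 1.05 and Mcm3, Mcm5 and Mcm6 from 0.78 to 0.85. Cdc20 was higher at 1.08. Mki67, the marker of cycling cells, had 488 normalized counts in CTRL against 1197 in the residual (-1.29), Stmn1 was at -1.06 and Ube2c at -2.83. Over all 31 genes, those under the level included, the median was -0.17, and scaling to total reads turned it to 0.02. Of 4 replication-dependent histone genes at the level, 0 were higher and 3 lower.

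Receptor segments gave a coarse view of the T-cell repertoire, since counts per gene do not resolve rearranged receptors. Trbv segments held 35783 reads in CTRL and 5919 in the residual, and Trav segments 19127 and 3232. Of 14 Trbv segments at the level 12 were higher and 0 lower. Their summed reads had a log2 ratio of 1.84, against 1.57 for the CD3 genes. The most used segment was Trbv13-2 in CTRL, with 12% of Trbv reads (against 9.0% in the residual), and Trbv1 in the residual (8.3% against 13.5%). In the residual Trbv31 and Trbv20 took larger shares. Trbv31 held 3.5% in CTRL against 9.5% in the residual, and Trbv20 2.4% against 8.8%. Trbv14, at 5.5% against 2.7%, and Trbv17, at 6.2% against 3.1%, took larger shares in CTRL. The segments named here were picked after their shares were seen, and the exact binomial intervals of the shares cover counting error only.

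**Figure D5:**
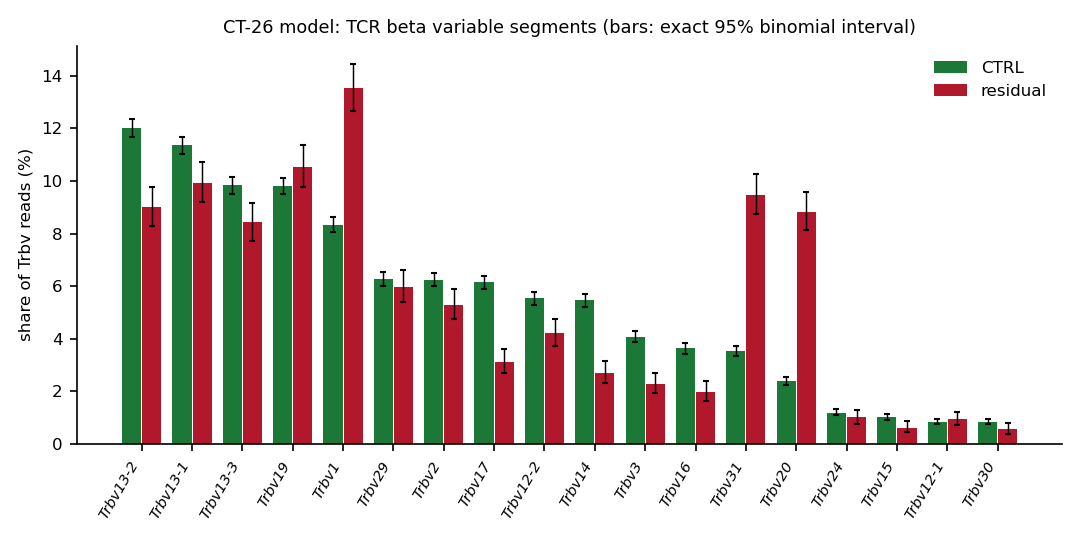
Bars give the share of all Trbv reads taken by each segment in percent, CTRL in green to the left of the residual in red, ordered by the share in CTRL. Error bars are exact 95% binomial intervals for counting error; Trbv1, Trbv31 and Trbv20 stand higher in the residual, at 13.5%, 9.5% and 8.8%.

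The clusters of joining segments took different shares in the libraries. Trbj1 segments, which lie before Trbc1, held 43.9% of Trbj reads in CTRL (43.1% to 44.6%) and 67.6% in the residual (66.2% to 69.1%), and Trbj2 segments 56.1% against 32.4%. Trbj1-1 alone held 4.6% in CTRL against 19.4% in the residual, so much of the Trbj1 difference lay in this segment. Trbj2-7 held 14.5% against 7.0%. The constant genes differed the same way, Trbc1 at 0.85 and Trbc2 at 1.49. Reads of unrearranged transcripts and of rearranged receptors are not separated in these counts.

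Among immunoglobulin constant genes, Ighm had the highest ratio. Ighg3, under the level, was at -0.88 (-1.35 to -0.43), Ighd at -1.50 and the lambda constant genes Iglc1, Iglc2 and Iglc3 at -2.80, -2.89 and -3.07. The 25 B cell genes had 0 higher and 22 lower, and their ratios lay close together, with the middle of the list from -2.33 to -1.50 (median -1.96). Ms4a1, which encodes CD20, was at -2.24 and Cd79a at -2.26. Ighm, the IgM constant region, had 30278 normalized counts in CTRL against 43162 in the residual (-0.51), and did not pass the rule. Igkc, the kappa light chain, had 4613 against 73017 (-3.98), Jchain, the joining chain of secreted IgM and IgA, was at -6.68, Igha at -6.07 and Ighg1 at -5.97. Ighg2b had 4 reads against 3862 (-10.26, -12.54 to -9.31). CTRL thus held 6.56 Ighm reads for each Igkc read and the residual 0.591, and 11 against 3.28 per Cd79a read. Of the Ighv reads, Ighv5-6 took 30.8% in CTRL against 4.2% in the residual, on 1668 and 9925 reads in all. Segments of this family have near-identical copies, so single values are uncertain.

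The lists of other blood lineages were lower to different degrees. The 18 neutrophil genes at the level were all lower, and the middle of the list spanned only 0.75 on the log2 scale, from -6.78 to -6.03. S100a8 had 1511 normalized counts in CTRL against 166842 in the residual (-6.79) and its partner S100a9 2640.1 against 283392 (-6.75). Basophil and mast cell genes (median -6.08) and classical monocyte genes (-5.89) stood near them, Lyz2, the myeloid lysozyme, being at -6.26. Erythroid genes had 0 higher and 12 lower of 13 (median -3.45, and -3.68 at the level), and the 4 haemoglobin genes at the level ranged from -4.72 to -4.17. All haemoglobin genes together held 0.629% of the reads in CTRL against 10.8% in the residual. Globin genes have near-identical copies, which leaves their single values uncertain. Platelet genes had a median of -2.67, and the 6 at the level were all lower, with a median of -3.26. Gamma delta T cell genes had 0 higher and 3 lower of 3 at the level, which were Trdc, the delta constant gene, with 620 reads against 1772 (-2.27), and Blk (-1.96) and Zbtb16 (-4.92), which the B cell and lymphoid factor lists hold too. Cd163l1, a scavenger receptor gene of that list known from gamma delta T cells, ran the other way under the level, with 671 reads against 32 (3.61, 3.13 to 4.20). The delta segment Trdv1, off the list, had 253 reads against 10 (3.81), and was picked after its value was seen. Trdv2-2, the delta segment with most reads in both libraries, had 312 against 366 (-0.98). All Trdv segments together held 584 reads in CTRL against 436 in the residual, a log2 ratio of -0.33 after normalization. Carcinoma and stromal genes held small shares, 0.00363% and 0.0192% of reads in CTRL against 0.00425% and 0.0123% in the residual. These shares rest largely on single genes. Pecam1 held 12640 of the 14413 stromal reads in CTRL and 3896 of 6227 in the residual. Lgals4 held 2261 of the 2716 carcinoma reads in CTRL and 701 of 2162 in the residual, where Cdh1 held 1232.

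Neighbouring genes in receptor clusters differed from each other. In the natural killer gene complex of chromosome 6, 14 of 19 genes at the level were lower and 1 higher. Cd69 (1.72), which T cells also carry, lies there with the myeloid lectins Clec12a (-5.78) and Clec7a (-6.7) and with Klra17 (-7.85), which encodes Ly49Q. Klrd1 (-0.78), Klrc1 (-0.40) and Klrc2 (-0.92), whose products form CD94 and NKG2 receptors of NK cells and some CD8+ T cells, stayed within 2-fold. Klrk1, which encodes NKG2D of both cell types, was lower at -1.70. The Gimap GTPases, which support lymphocyte survival, ranged from 0.28 to 1.20 over 8 genes, with Gimap3 (1.20) and Gimap6 (1.01) higher, and next to them Tmem176b and Tmem176a, known from myeloid cells, were at -6.17 and -5.55. These windows were chosen after their values were seen.

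Genes of innate sensing were lower as groups, with named exceptions. Toll-like receptor and adaptor genes had 2 higher and 11 lower of 16 at the level (median with reads -3.37). Tlr12, a receptor for a parasite protein in mice, had 1411 normalized counts in CTRL against 158 in the residual (3.15, 2.89 to 3.43), and Tlr1 was at 1.13. Tlr13 was at -6.92 and Tlr2 at -4.34. Fc receptor genes had 0 higher and 10 lower of 10 (median -3.10, and -3.42 at the level), C-type lectin genes 0 higher and 10 lower of 11 (median -6.37, and -6.65 at the level), chemokine ligand genes 0 higher and 10 lower of 11 (median -5.82) and NADPH oxidase genes 0 higher and 5 lower of 7 (median -2.76, and -2.18 at the level). Interleukin 1 and inflammasome genes had 0 higher and 11 lower of 15 (median -4.58, and -5.31 at the level), Il1b having 2058 against 147450.0 (-6.16). Ccl5, a chemokine that CD8+ T cells store, was the chemokine within 2-fold, at -0.84. Ccl2, which recruits monocytes, had 1 read in CTRL against 1036 (-9.57, -16.07 to -8.29).

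The S100, annexin and galectin list had 0 higher and 13 lower of 20, with Anxa6 at 0.90 and Anxa3 at -6.66. Lipid and prostaglandin genes had 1 higher and 11 lower of 17. Abca1, the cholesterol exporter, was higher at 1.03, and Alox5ap, which helps make leukotrienes, was at -6.85. Of 7 Schlafen genes at the level 0 were higher and 2 lower, Slfn4, induced in myeloid cells, at -6.39 and Slfn5 at -1.93. Inhibitory receptor genes had 0 higher and 5 lower of 10 at the level. Pdcd1, which encodes PD-1, had 314 reads in CTRL against 121 in the residual and stayed under the level at 0.62. Heat shock genes had 2 higher and 1 lower of 15, Hsph1 at 1.75 and Hspa9 at 1.06 being higher. Cytosolic ribosomal protein genes had 3 higher and 1 lower of 79 (median 0.31), and long noncoding RNAs of known name 0 higher and 2 lower of 12, with Neat1 at -1.73.

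Outside the lists, the abundant genes with large positive ratios had varied functions. Rgs11, a brake on G protein signals, had 6661 normalized counts in CTRL against 623 in the residual (3.42), and Sidt1, a membrane protein linked to RNA transport, 38773 against 3732 (3.38). Tanc1 was at 3.39, Btbd11 at 3.33, Sema4f at 2.94, Taf4b at 2.80 and Slc12a7, a potassium chloride cotransporter, at 2.71. Dpp4, the peptidase CD26 of T cells, was at 2.53. Among genes of low level, Hcn3, a pacemaker channel, had 1159 reads against 12 (5.75, 5.03 to 6.80), Apol7e 1161 against 6 (6.67) and Ifngas1, a noncoding RNA beside Ifng, 1555 against 54 (4.08). Ifng itself was at -0.69. Hcn3, Apol7e and Ifngas1 were named after their values were seen.

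A few genes at the level had no read in 1 library. In the residual these were 3 genes, Slc6a19, Syde2 and the noncoding RNA A930002I21Rik, with 839, 777 and 962 reads in CTRL, at least 166-fold, 154-fold and 190.3-fold higher against the floor. In CTRL they were 6, with Nav1 (1181 reads in the residual, at least 663-fold lower), Sycp2 (852, at least 479-fold), Met (758, at least 426-fold) and Olfm4 (564, at least 317-fold) among them. Olfm4 is a granule protein of a subset of neutrophils. Without the level, 3747 genes had reads in CTRL alone and 2717 in the residual alone.

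The remaining lists of other cells gave these counts, each beside the 14.5% and 16.3% of all genes. CD4 helper and regulatory genes had 1 higher and 5 lower of 9 at the level, the higher one being Icos, a costimulatory receptor of activated T cells, at 1.46. Killer lectin and NK receptor genes had 1 higher, the activating receptor gene Cd226 (2.49), and 12 lower of 16, plasma cell genes 0 higher and 9 lower of 11, and immunoglobulin constant genes 0 higher and 10 lower of 11. Dendritic cell genes had 1 higher, Ccr9, and 8 lower of 11. Nonclassical monocyte genes had 0 higher and 11 lower of 14, and macrophage and complement genes 0 higher and 12 lower of 13. Of 3 progenitor genes at the level Myc was higher and 2 were lower. The 1 eosinophil gene at the level was lower. In the stromal list Eng, endoglin, was higher at 2.41 and Acta2, smooth muscle actin, lower at -7.79.

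The genes with most reads show how the libraries were filled. In CTRL the leading genes were H2-D1 (0.792% of reads), Actb (0.745%), Tmsb4x (0.579%) and H2-K1 (0.434%), and in the residual Hbb-bs (5.46%), Hba-a1 (3.26%) and Hba-a2 (1.39%). Ccr7 and Ets1 were among the 15 genes with most reads in CTRL, at 0.264% and 0.256%, against 0.0426% and 0.0787% in the residual. The number of genes that together held 50% of the reads was 961 in CTRL and 630 in the residual.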

How the data were processed

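Blood cells of the CT-26 model were measured by RNA-seq in 1 library of multimer-bound cells (CTRL) and 1 labelled residual, amplified with a SMART-Seq v4 ultra-low input kit per the labels' protocols. The authors deposited raw read counts per gene, which are used as deposited. The authors also deposited normalized values, here treated as a signal. They equal the raw counts divided by 1 size factor per library, 1.30 for CTRL and 0.770 for the residual, which median-of-ratios factors recomputed from the counts matched. STAR 2.7.3a, HTSeq 0.11.2, DESeq2 and mm10 are named in the submitters' processing notes with no role. Of the gene identifiers, 99.8% matched GENCODE M21, which gave lengths and positions, while biotypes are as deposited. The deposited fold and p columns were not used. Values of 4 list members are not reported here, though the list counts and medians include them.

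Ratios were taken on normalized counts with a pseudocount of 1, and intervals are exact binomial (95%). A library without reads was set to a floor of 3 reads for fold bounds. With 1 library a group no test was run. The report used 57 gene lists with 1102 memberships, of which 14 matched no gene in the table, and 949 symbols in all. Members and lists were chosen with earlier results of these data known. Named genes were list members with the largest ratios at the level, a few defining markers, the largest rises and falls among abundant protein-coding genes, and the 15 most-read genes of each library. Genomic windows, pairs of related genes, further list members, level genes without reads and genes of low level were named after their values were seen. Promoters came from the RefSeq table, and the motif search used exact letters on both strands.

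Alternatives were other pseudocounts, levels, fold limits and scalings, with TMM and upper-quartile factors from edgeR 4.0.16 in R 4.3.3. Scripts ran in Python 3.11.15 with numpy 2.4.6, pandas 2.3.3, scipy 1.17.1 and matplotlib 3.10.9, and were tested on simulated data.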

Additional observations from a re-analysis of the deposited data

How the results depend on the processing

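Lowering the level to 1 CPM gave 2154 genes higher and 3231 lower in CTRL, raising it to 50 CPM gave 789 and 760, and no level gave 5627 and 8073. A limit of 4-fold gave 208 and 974. Counts stayed within 1.5 times the reported 1381 and 1555 with total-read scaling (1981 and 1386), TMM (1317 and 1586), upper-quartile scaling (1629 and 1469), totals without haemoglobin genes (1479 and 1517) or also without immunoglobulin and mitochondrial genes (1458 and 1523), a pseudocount of 0.1 (1382 and 1555) or 5 (1379 and 1552), and intervals beyond 2-fold (1166 and 1467). Total-read scaling turned the medians of the Kruppel-like factors to 0.14 and of the cell cycle genes to 0.019. Upper-quartile scaling turned the Kruppel-like median to 0.036, and a pseudocount of 5 turned the carcinoma median to -0.070. The cause of these 4 reversals and of those below was not tested. Over all alternatives 311 recomputed list medians moved by less than the half-width of their members' median counting interval, and 84 by more. For 283 genes, the named ones among them, the ratio was recomputed under each of 7 alternatives: 1491 values moved within the counting interval, 474 beyond it and 16 reversed, all 16 of them ratios near 0. Total-read scaling turned Eno1 to 0.19, Gapdh to 0.16, Il2rb to 0.075, Irf9 to 0.14, Slc3a2 to 0.19 and Trbv20 to 0.15. Upper-quartile scaling turned Eno1 to 0.089, Gapdh to 0.052, Irf9 to 0.035, Slc3a2 to 0.090 and Trbv20 to 0.051. Totals without haemoglobin genes turned Eno1 and Slc3a2 to 0.037, totals also without the others to 0.029 and 0.030, and TMM turned Ifngr1 to -0.0076. With TMM, Abca1 (0.998) and Gimap6 (0.98) fell under the limit, and Tmsb4x (-1.003) passed as lower. With upper-quartile scaling Hk1 (1.06), Klf3 (1.07), Klf16 (1.04) and Rmnd5a (1.07) passed as higher, and Stmn1 (-0.97) fell within 2-fold. Totals without haemoglobin genes made Hk1, Klf3 and Rmnd5a pass as higher, and totals also without the others Klf3 and Rmnd5a. No paired analysis was possible because each group has 1 library and no test was run. With 10 CPM worth 749 reads in CTRL and 508 in the residual, depth limits mainly genes under that level. The spread between animals or preparations cannot be known from 1 library a side.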
